A study of Mus musculus with 16 samples.

Results

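Small RNA from 4 libraries of mouse mesenchymal stem cells was compared, 2 from cells with a helicase mutant of human Dicer and 2 from cells with the unchanged enzyme. They were chosen by their labels alone, out of 16 libraries in 8 groups. All 4 came from Dicer -/- cells of strain C57BL/6, so the mouse enzyme was deleted in both groups. One group was transfected with Human Dicer endoribonuclease (hsDicer) and the other with the form labelled Helicase (K70A), a lysine-to-alanine change. The other groups were Dicer f/f cells with mCherry (wild type here), Dicer -/- cells with mCherry (knockout here) and Dicer -/- cells with Dicer mutants Y971A/Y972A, D1320A, D1709A or D1320A/D1709A. Total RNA was taken with Trizol, cut from a gel at 15 to 50 nt and made into libraries by an Illumina small RNA procedure. The labels do not say how much of either protein the cells made, nor whether replicates 1 and 2 came from separate cultures, so p-values measure the spread between these libraries, which may be technical.

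Dicer cuts the precursor hairpin of a microRNA (miRNA) next to its loop and frees the strand from the 5′ side (5p arm) and the strand from the 3′ side (3p arm). Of the 4 ends, Drosha has already made the 5′ end of the 5p arm and the 3′ end of the 3p arm, while Dicer makes the 3′ end of the 5p arm and the 5′ end of the 3p arm. The helicase domain at the start of the protein faces the loop of the precursor; in the fly enzyme Dicer-2 the related domain uses ATP while long double-stranded RNA is cut. The lysine replaced in K70A lies in the ATP-binding motif of that domain, and the comparison asks what this motif adds to miRNA production in cells.

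The results turn on the following mature sequences, given 5′ to 3′ from RefSeq (GRCm38.p6), with the seed (bases 2 to 8, the part that pairs with targets) in capitals. The first set holds the 10 arms with the highest mean level over the 4 libraries, which carry most of the miRNA reads.
miR-22-3p: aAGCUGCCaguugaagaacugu
miR-29b-3p: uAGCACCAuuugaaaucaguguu
miR-21a-5p: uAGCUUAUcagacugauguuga
let-7c-5p: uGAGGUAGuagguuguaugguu
miR-24-3p: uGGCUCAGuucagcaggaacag
miR-99b-5p: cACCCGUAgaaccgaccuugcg
miR-31-5p: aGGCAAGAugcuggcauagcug
let-7i-5p: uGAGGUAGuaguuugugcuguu
miR-96-5p: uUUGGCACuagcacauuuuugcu
let-7b-5p: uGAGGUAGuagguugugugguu
The 3 let-7 members of this set share 1 seed, and the other 7 arms have a seed each. The second set holds arms whose level was over 2-fold apart in the same direction in both replicates; miR-93-5p and miR-20a-5p share a seed, and let-7a-5p has that of the let-7 family.
let-7a-5p: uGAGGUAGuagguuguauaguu
miR-93-5p: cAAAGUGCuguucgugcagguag
miR-20a-5p: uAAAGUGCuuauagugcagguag
miR-18-5p: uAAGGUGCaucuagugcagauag
miR-130a-3p: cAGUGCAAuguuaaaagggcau
miR-186-5p: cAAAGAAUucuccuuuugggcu
The third set holds examples of arms for which the main wild-type end took a share over 10 percentage points lower with K70A in both replicates. They lie at chr6:30169711-30169732 (minus strand) and chr1:162223438-162223459 (plus strand).
miR-183-5p: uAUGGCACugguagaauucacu
miR-214-3p: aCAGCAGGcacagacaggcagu

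The hsDicer libraries held 15144742 and 20096330 reads and the K70A libraries 15670673 and 16089938 reads, given here as replicate 1 and 2. Of these, 5489250 and 2707367 (hsDicer) and 4588900 and 2839719 (K70A) were miRNA reads, that is reads of 18 to 26 nt that matched an annotated hairpin. Read numbers overstate how finely levels were resolved, because the reads per distinct insert (a sequence left once the adapter is removed) piled up at a fixed number in each library. That number, here called the step, was 5311.9 reads in hsDicer 1, 29.3 in hsDicer 2, 2233.4 in K70A 1 and 58.7 in K70A 2. Levels are given in RPM, an arm's reads per 1000000 miRNA reads of the library, and the step is worth 967.7, 10.8, 486.7 and 20.7 RPM, so that a level near or under it in replicate 1 rests on few inserts that were read very often. Only 66 arms reached 1 step in all 4 libraries, and 7 reached 20 steps. Replicate 2 was thus the more finely resolved in both groups, and each value is given per replicate; the source of the steps was not tested. The sequencer read 41 nt for replicate 1 but 51 nt for replicate 2. Reads of mouse Dicer1, the deleted gene, check nothing about the labels because the deleted part is not given. They were sought among inserts of 20 nt or more that match no other gene's transcript, and inserts read only a few times were left out. Within these limits hsDicer 1 held none and hsDicer 2 a single distinct read seen 26 times. K70A 1 held a single one seen 2064 times and K70A 2 a pair seen 112 and 63 times.

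**Figure D1:**
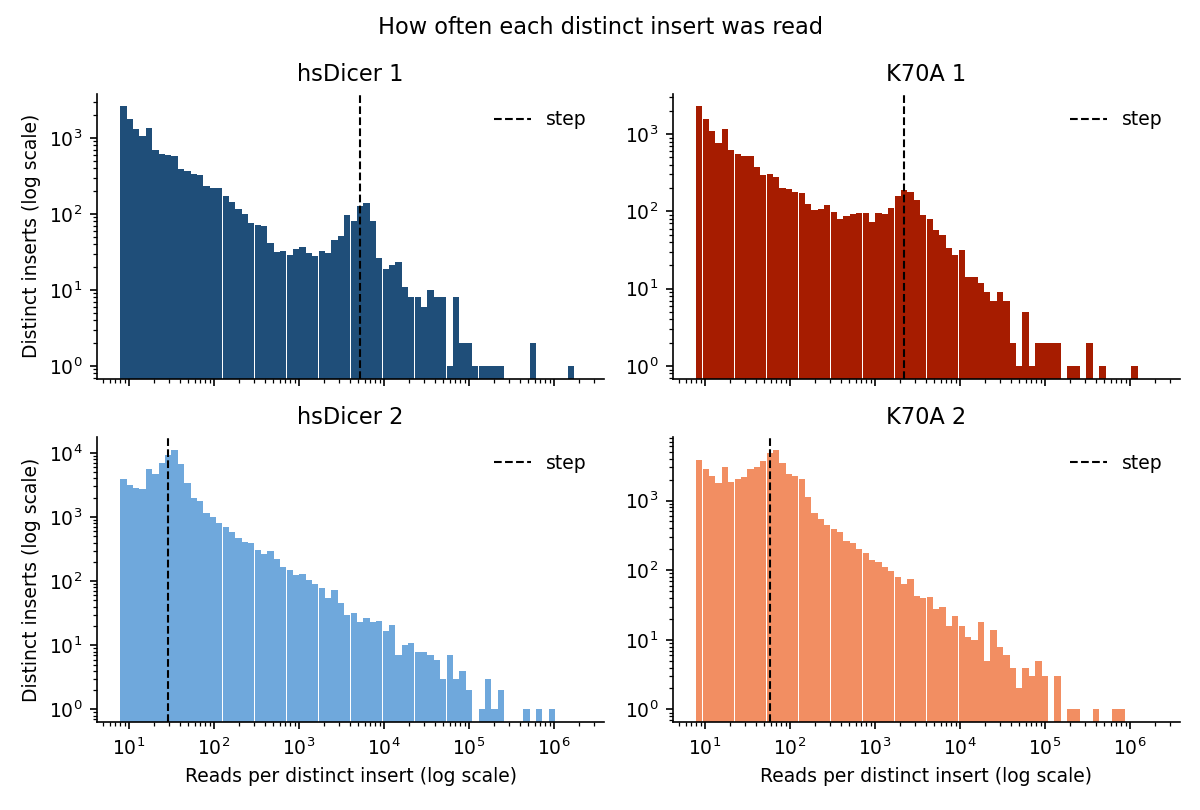
Number of distinct inserts (vertical, log scale) by how often each was read (horizontal, log scale), 1 panel per library, with the step marked. The pile lies at 5311.9 and 2233.4 reads in the replicate 1 libraries of hsDicer and K70A and at 29.3 and 58.7 reads in those of replicate 2.

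miRNA reads were many times more frequent with either enzyme than in the knockout. They made up 31.0% and 20.4% of inserts of 15 nt or more with K70A and 38.1% and 14.4% with hsDicer, against 1.54% and 0.293% in the knockout and 47.4% and 37.5% in wild type. The mean was 25.7% ± 7.48 (SD, n = 2) with K70A and 26.2% ± 16.7 (SD, n = 2) with hsDicer. The groups overlapped (exact permutation test, 2-sided, p = 1), and with 2 libraries against 2 such a test cannot give less than 0.333. The share of miRNA reads on 5p arms was 56.7% and 39.3% with K70A and 49.4% and 41.7% with hsDicer, again with overlap (exact permutation p = 1). miR-22, nearly all of whose reads are 3p, lowers this share in each library. Without miR-22 it was 76.1% and 57.5% with K70A and 69.2% and 58.0% with hsDicer, and the replicates of each enzyme stayed at least as far apart.

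Among arms of 1000 RPM or more, miRNA levels differed more between replicates of the same enzyme than between the enzymes within a replicate number. They are read numbers, not scaled by length; over the 77 arms with 100 reads or more in each library, mean read lengths ran from 19.9986 nt (miR-125b-3p, hsDicer 1) to 25.999 nt (miR-15b-5p, hsDicer 1). Over the 73 arms of 1000 RPM or more on average, the median absolute log2 difference between K70A and hsDicer was 0.81 in replicate 1 and 0.38 in replicate 2. Between replicates it was 1.13 with hsDicer and 1.10 with K70A. More than 2-fold apart were 31 of 72 arms between the enzymes in replicate 1 and 5 of 73 in replicate 2, but 41 of 73 between the hsDicer replicates and 37 of 73 between the K70A replicates. Across these arms the levels of the enzymes, as log2(RPM + 1), correlated with r = 0.955 in replicate 2 and 0.458 in replicate 1. Those of the replicates correlated with r = 0.50 (hsDicer) and 0.443 (K70A). Between enzymes of unlike replicate number r was 0.441 (hsDicer 1 with K70A 2) and 0.488 (hsDicer 2 with K70A 1). Arms share a library, so these correlations describe the libraries and carry no test. Over the 170 arms of 100 RPM or more, the median absolute log2 difference between the enzymes was 2.04 in replicate 1 and 0.55 in replicate 2. Between replicates it was 3.06 with hsDicer and 2.02 with K70A at that level. No arm passed: edgeR's quasi-likelihood test called 0 of 404 arms (0.0%) at a Benjamini-Hochberg adjusted p under 0.05. Unadjusted p lay under 0.05 for 3 arms, miR-450-5p, miR-335-3p and miR-99b-5p, and DESeq2 called 1 arm, lower with K70A. The biological coefficient of variation of the fit was 2.46.

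**Figure D2:**
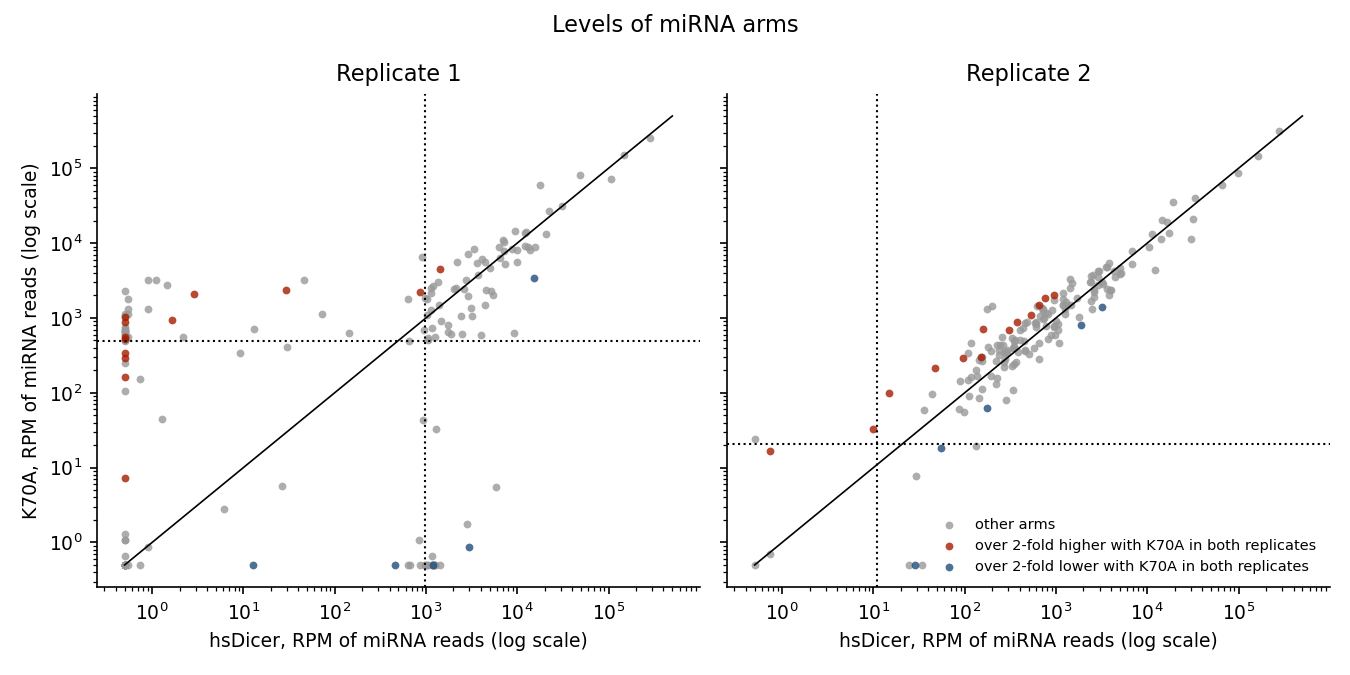
Level of the 170 miRNA arms of 100 RPM or more with hsDicer (horizontal) and K70A (vertical) in RPM on log scales, replicate 1 left and replicate 2 right; dotted lines mark each library's step, and levels under 0.5 RPM are drawn at 0.5. Points follow the diagonal closely in replicate 2 (median absolute log2 difference 0.38 over arms of 1000 RPM or more) and scatter in replicate 1 (0.81).

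None of the 10 most abundant arms passed the test, and the enzymes overlapped in 9 of them. miR-22-3p, the largest in every one of the 4 libraries, stood at 254943 and 316649 RPM with K70A and at 285721 and 280723 with hsDicer (log2 difference −0.09, SE 0.28). miR-29b-3p, known for repressing collagen genes, had 72132 and 144258 with K70A and 105977 and 164239 with hsDicer. It was lower with K70A in each replicate, but the groups overlapped (log2 difference −0.46, SE 0.40). miR-21a-5p, an abundant miRNA of fibroblasts, had 151871 and 85541 with K70A and 147094 and 98819 with hsDicer. For miR-29b-3p and miR-21a-5p the replicates of each enzyme were farther apart than the enzymes were within either replicate. miR-24-3p had 8954 and 59237 with K70A and 15781 and 66654 with hsDicer, which separates replicate 1 from replicate 2 and not the enzymes. miR-31-5p had 8785 and 40160 with K70A and 13089 and 33403 with hsDicer. let-7c-5p had 81640 and 11279 with K70A and 49044 and 30078 with hsDicer, so K70A was the higher in replicate 1 and the lower in replicate 2. The same crossing held for let-7i-5p (31481 and 13735 against 31205 and 17161) and let-7b-5p (27120 and 4435 against 22019 and 12029).

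Of the 10, miR-99b-5p alone had both K70A libraries above both hsDicer libraries, and none had both below. It stood at 60172 and 35081 RPM with K70A, at 17819 and 19004 with hsDicer and at 18680 and 14046 in wild type. The log2 difference was 1.36 (SE 0.69), with an edgeR p of 0.048 before adjustment over the 404 arms (adjusted p = 1.0). Its hairpin lies at chr17:17830194-17830215 (plus strand, position of the 5p arm), next to those of let-7e and miR-125a on the same strand. These neighbours were looked up once the value had been seen: let-7e-5p had 2350 and 1033 with K70A and 4511 and 1775 with hsDicer, and miR-125a-5p had 14548 and 20048 with K70A and 9499 and 14573 with hsDicer. The 3 arms of this cluster thus differed in direction. miR-96-5p was lower with K70A in each replicate (7966 and 21294 against 13884 and 31426), with overlap between the groups (log2 difference −0.79, SE 0.87). It comes from a cluster with miR-183 and miR-182, of which miR-183-5p had 9026 and 3897 with K70A against 12054 and 5085, while miR-182-5p had 6196 and 4759 against 4160 and 3508. Across the 170 arms of 100 RPM or more, both K70A libraries lay above both hsDicer libraries in 29 (17.1%) and below in 14 (8.24%).

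**Figure D3:**
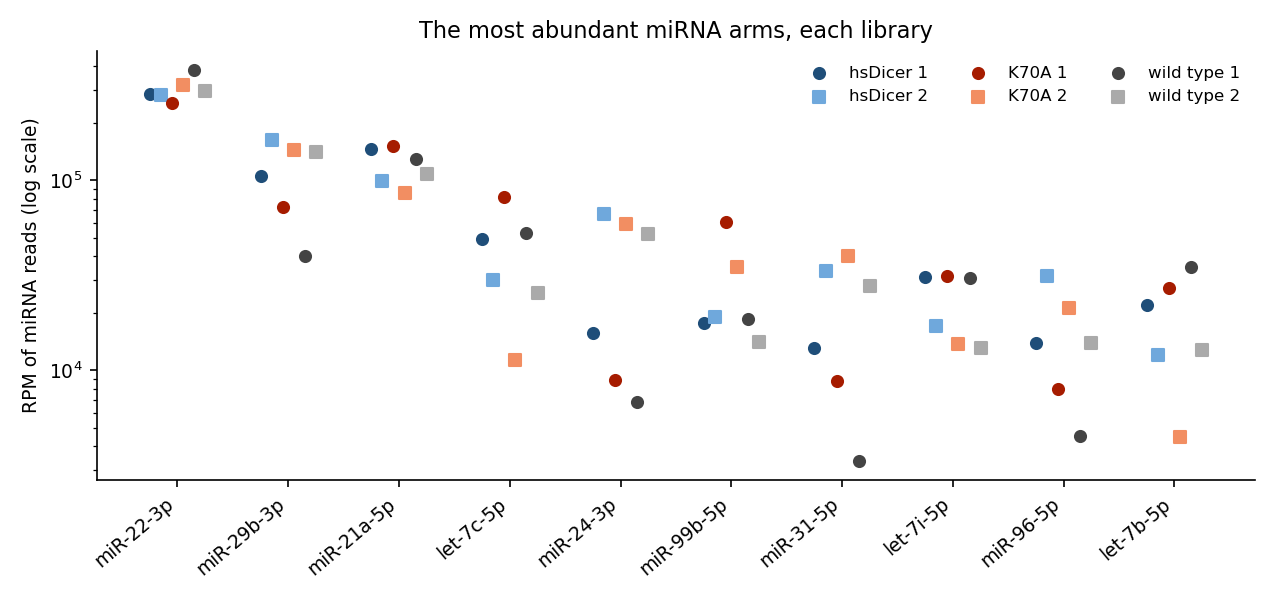
Level of the 10 most abundant arms in RPM (log scale), 1 point per library of hsDicer, K70A and wild type, circles for replicate 1 and squares for replicate 2. miR-99b-5p has both K70A points (60172 and 35081) above both hsDicer points (17819 and 19004); for the other 9 arms the ranges of the enzymes overlap.

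Arms that departed from this agreement were defined as over 2-fold apart in the same direction in both replicates, among arms of 100 RPM or more. There were 13 higher with K70A (7.65% of 170) and 5 lower (2.94%), and none passed the edgeR test. Most were known at coarse resolution: 12 of the 13 higher arms stood under 1 step in hsDicer 1, and 4 of the 5 lower arms under 1 step in K70A 1. The exceptions were miR-93-5p and let-7a-5p, which held at least 1 step in all 4 libraries. miR-93-5p, a paralog of the growth-promoting miR-17-92 group, had 4505 and 1866 RPM with K70A and 1444 and 754 with hsDicer, without overlap (log2 difference 1.54, SE 2.00). let-7a-5p, of the family that represses Hmga2 and other growth genes, had 3380 and 1401 with K70A and 15224 and 3189 with hsDicer. Its hsDicer 2 value lay within the range of the K70A libraries (log2 difference −1.96, SE 1.38).

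Others that were higher without overlap stood under 1 step in hsDicer 1. miR-186-5p had 2064 and 1108 with K70A and 2.92 and 538 with hsDicer. miR-18-5p, of the miR-17-92 cluster, had 2391 and 892 with K70A and 29.5 and 375 with hsDicer. miR-130a-3p had 1035 and 698 with K70A and 0.364 and 304 with hsDicer. In each of these the replicate 2 libraries, where all values were over 20 steps, differed by a log2 value between 1.04 and 1.25, and replicate 1 by more than 6. miR-106b-3p (946 and 717 against 1.64 and 160), miR-30d-3p (878 and 305 against 0.182 and 151) and miR-501-3p (162 and 290 against 0 and 96.0) also lay higher without overlap, but stood under 20 steps in hsDicer 2. So did the smaller miR-130b-5p (288 and 97.9 against 0.182 and 14.8). miR-20a-5p, a member of the miR-17-92 cluster, overlapped, with 7.19 and 2018 against 0 and 955, as did miR-324-5p (338 and 1473 against 0 and 651) and miR-10b-5p (2207 and 216 against 861 and 47.6). Of the 6 largest positive differences in the fit, miR-5615-5p (558 and 16.9 against 0 and 0.739), miR-449c-5p (519 and 33.1 against 0 and 9.97), miR-193a-5p (1795 and 167 against 0.547 and 135) and miR-206-3p (2278 and 368 against 0.364 and 292) rested mainly on K70A 1; the remaining pair were miR-130b-5p and miR-106b-3p. For miR-193a-5p and miR-206-3p, a miRNA of skeletal muscle, the replicate 2 libraries were less than 2-fold apart.

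The arms with the largest negative differences were highest in hsDicer 1. miR-450-5p had 0.872 and 18.3 RPM with K70A and 2980 and 55.0 with hsDicer (log2 difference −7.65, SE 3.79, edgeR's quasi-likelihood test, adjusted p = 1.0), and the difference ranged from −10.63 to −2.78 with a library left out. miR-340-5p had 0.218 and 63.0 against 1199 and 175, and miR-702-5p, made from a spliced intron without Drosha, 0.218 and 0 against 454 and 28.8. The other 3 named by the rule differed by less than 2-fold in replicate 2: miR-26b-3p had 0 and 54.9 against 1270 and 99.4, miR-145a-5p 0.654 and 229 against 1179 and 328, and miR-7688-5p 42.7 and 84.5 against 918 and 143. miR-425-5p overlapped, with 0.218 and 800 against 12.8 and 1879.

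Replicate 2 alone offers the closest view, with 106 arms of at least 20 steps in both of its libraries, though a single library stands for each enzyme there. The median absolute log2 difference was 0.51, and 64 arms were higher with K70A. Beyond 2-fold lay 9 arms higher and 5 lower. The higher ones were miR-93-5p (1.31 on the log2 scale), miR-18-5p (1.25), miR-19b-3p (1.22), miR-27b-3p (1.22), miR-130a-3p (1.20), miR-324-5p (1.18), miR-301-3p (1.12), miR-20a-5p (1.08) and miR-186-5p (1.04). The lower ones were let-7b-5p (−1.44), let-7c-5p (−1.42), miR-139-5p (−1.24), miR-425-5p (−1.23) and let-7a-5p (−1.19). miR-18-5p, miR-19b-3p, miR-20a-5p and miR-93-5p belong to the miR-17-92 cluster or its paralogs, which had 10 of the 106 arms, 8 of them higher. The 3 let-7 arms share the seed shown above; the let-7 family had 9 of the 106 arms, all lower with K70A in replicate 2. In replicate 1 let-7b-5p and let-7c-5p were higher with K70A, by 0.30 and 0.74 on the log2 scale.

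The miR-17-92 cluster and paralogs had 13 arms of 100 RPM or more, of which 10 were higher with K70A and 3 lower, and 4 of the 13 departed upward, none downward; of all 170 arms 93 were higher and 77 lower, and 13 departed upward and 5 downward. The median log2 difference over those 13 was 0.95, against 0.12 over all 170 arms of that level. By replicate the list's medians were 3.72 and 0.79 and those of all 170 arms 0.18 and 0.27. The value of 3.72 is that of miR-20a-5p, which stood under 1 step in both libraries of replicate 1, so it gives no size for the list. Of the list's 18 tested arms, 7 were at 0 in hsDicer 1 and 3 in K70A 1. As a share of miRNA reads the list made up 2.06% and 1.92% with K70A, 1.30% and 1.43% with hsDicer and 0.583% and 0.911% in wild type. Its most abundant arm, miR-92-3p, did not share this direction, with 4598 and 4617 RPM with K70A and 4984 and 5014 with hsDicer. miR-25-3p (3254 and 1677 against 0.911 and 2406) and miR-17-5p (1.74 and 2484 against 2792 and 1436) crossed between replicates. The let-7 family had 12 arms of 100 RPM or more, 4 higher and 8 lower with K70A, with medians of 0.12 in replicate 1 and −0.64 in replicate 2. It made up 16.9% and 4.38% of miRNA reads with K70A and 15.0% and 7.84% with hsDicer. miRNAs abundant in fibroblasts and mesenchymal cells, such as miR-22, miR-21a and miR-29b, made up 65.4% and 77% with K70A and 68.0% and 74.5% with hsDicer. Of their 38 arms at that level, 18 were higher and 20 lower, and 1 departed.

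Precursors that bypass part of the usual pathway showed no common direction. miR-320-3p, whose precursor is capped and made without Drosha, had 2428 and 1497 RPM with K70A and 2607 and 1195 with hsDicer. miR-484-5p, also from a capped precursor, had 1275 and 1727 with K70A and 1150 and 956 with hsDicer. They and miR-702-5p were the 3 arms of that list at 100 RPM or more, and over its 10 tested arms the median was −4.05, set by arms of few reads. No arm of the miR-379-410 cluster had enough reads to be tested. Markers of other cell types (pluripotent cells, blood, neurons, muscle, liver, endothelium) summed to 0.445% and 0.138% of miRNA reads with K70A and 0.115% and 0.10% with hsDicer. Of the 13 marker arms tested, 9 and 6 were at 0 with K70A and 11 and 2 with hsDicer, and only miR-206-3p and the endothelial miR-126a-3p (2168 and 511 against 1149 and 404) reached 100 RPM. The larger share in K70A 1 goes with the high miR-206-3p there; its part in the levels was not tested. In every list edgeR called 0 arms.

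No shift in arm choice passed the test. Of 107 hairpins of 100 RPM or more, 87 had the same major arm in all 4 libraries. edgeR's interaction test called 0 of 139 hairpins (0.0%), with unadjusted p under 0.05 for 1, miR-9, and a biological coefficient of variation of 1.76. The median absolute change of the log2 ratio of 5p to 3p reads was 7.69 in replicate 1 (34 hairpins with a value) and 1.05 in replicate 2 (105). Between replicates it was 5.32 with hsDicer and 6.09 with K70A. Of 33 hairpins with a value in both replicates, 1 departed toward 5p (3.03%) and 3 toward 3p (9.09%), counting shifts of over 2-fold in the same direction. In replicate 2 alone, among 11 hairpins with at least 20 steps on each arm, 0 shifted by more than 2-fold and 3 lay toward 5p with K70A.

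In 7 hairpins the rarer arm held at least 1 step in every library. For miR-22 the 5p arm took 0.22% and 0.22% of reads with K70A, 0.43% and 0.37% with hsDicer and 0.38% and 0.40% in wild type. Both K70A libraries lay below the other 4, on 2537 and 1966 reads of the 5p arm with K70A and 6818 and 2825 with hsDicer (log2 difference −0.88, SE 1.28, adjusted p = 1.0 by edgeR). For miR-24 it took 6.21% and 16% with K70A and 20.1% and 17.6% with hsDicer, and for miR-423 7.38% and 14% against 16.4% and 17.8%, both without overlap. The other 4 overlapped: let-7d (92.4% and 35.2% on 5p with K70A, 43.6% and 47.4% with hsDicer), miR-28a (62.5% and 57.9% against 61.9% and 48.8%), miR-92 (34.5% and 21.1% against 28.7% and 12.4%) and miR-99b (98.2% and 99.0% against 94.6% and 98.8%). Of the 7, let-7d thus held the widest range, and it lay within the K70A group.

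Of the hairpins with the largest shifts, miR-27a departed toward 3p, the strand usually kept. Its 5p share was 16.1% and 34.5% with K70A and 97.0% and 75.3% with hsDicer, but K70A 1 held only 5 and 26 reads of its arms, and wild type 98.4% and 43.4%. In replicate 2 the K70A library had 2164 reads of the 5p and 4100 of the 3p arm and the hsDicer library 1644 and 540. let-7e had 78.0% and 86.3% on 5p with K70A and 100% and 93.7% with hsDicer, and miR-30d 91.1% and 94.5% against 100% and 97.8%. Both keep the 5p strand as the major arm in all 4 libraries, and in hsDicer 1 their 3p arms held 0 and 1 reads. miR-20a departed toward 5p, with 91.7% and 97.6% against 0% and 80.7%, on 10 reads in all in hsDicer 1. The remaining hairpins named by size moved by less than 2-fold in replicate 2 or rested on an arm at or under 3 reads. miR-196a had 77.2% and 83.2% on 5p with K70A against 100% and 90.0%, and miR-501 had 0% and 40.7% against 100% and 57.8%. miR-214 had 0.01% and 40.6% against 24.2% and 44.9%. miR-125a (100% and 98.3% against 88.7% and 97.5%) and miR-26b (100% and 97.8% against 69.4% and 97.3%) leaned toward 5p, and the percentages of miR-361 (96.2% and 100% against 100% and 85.3%) crossed between replicates.

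The 5′ end of 5p arms, which Drosha makes, lay at its usual position in nearly all reads of all 4 libraries. The 3′ end of 5p arms, which Dicer makes, had a lower median share of usual ends in both K70A libraries than in both hsDicer libraries. The usual end is the position most used in wild type, and arms with 100 reads or more in each library were compared. The median share of reads with the usual 3′ end of 5p arms was 76.3% and 72.3% with K70A and 89.3% and 79.0% with hsDicer, without overlap (exact permutation p = 0.333, the smallest possible), and 87.5% and 75.8% in wild type. This separation held for the median alone: the mean over the same 51 arms was 70.1% and 67.9% with K70A and 69.4% and 72.3% with hsDicer, with overlap. Of 51 arms, the share was lower with K70A in 29 in replicate 1 and in 35 in replicate 2, with 22 lower and 8 higher in both. At the 3′ end of 3p arms, which Drosha makes, 8 of 26 arms were lower and 3 higher in both replicates. At the 5′ end of 3p arms 4 of 26 were lower and 3 higher, and at the 5′ end of 5p arms 9 of 43 were lower and 5 higher. More arms lower than higher were thus also found at ends that Drosha makes. The median 5′ end share of 5p arms was 100% and 99.6% with K70A and 100% and 99.5% with hsDicer (43 arms; exact permutation p = 1). For 3p arms the 5′ end, also made by Dicer, had 100% and 95.7% with K70A and 100% and 96.3% with hsDicer (26 arms; exact permutation p = 0.667). Their 3′ end had 96.5% and 73.8% with K70A and 92.0% and 88.6% with hsDicer (26 arms; exact permutation p = 1).

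**Figure D4:**
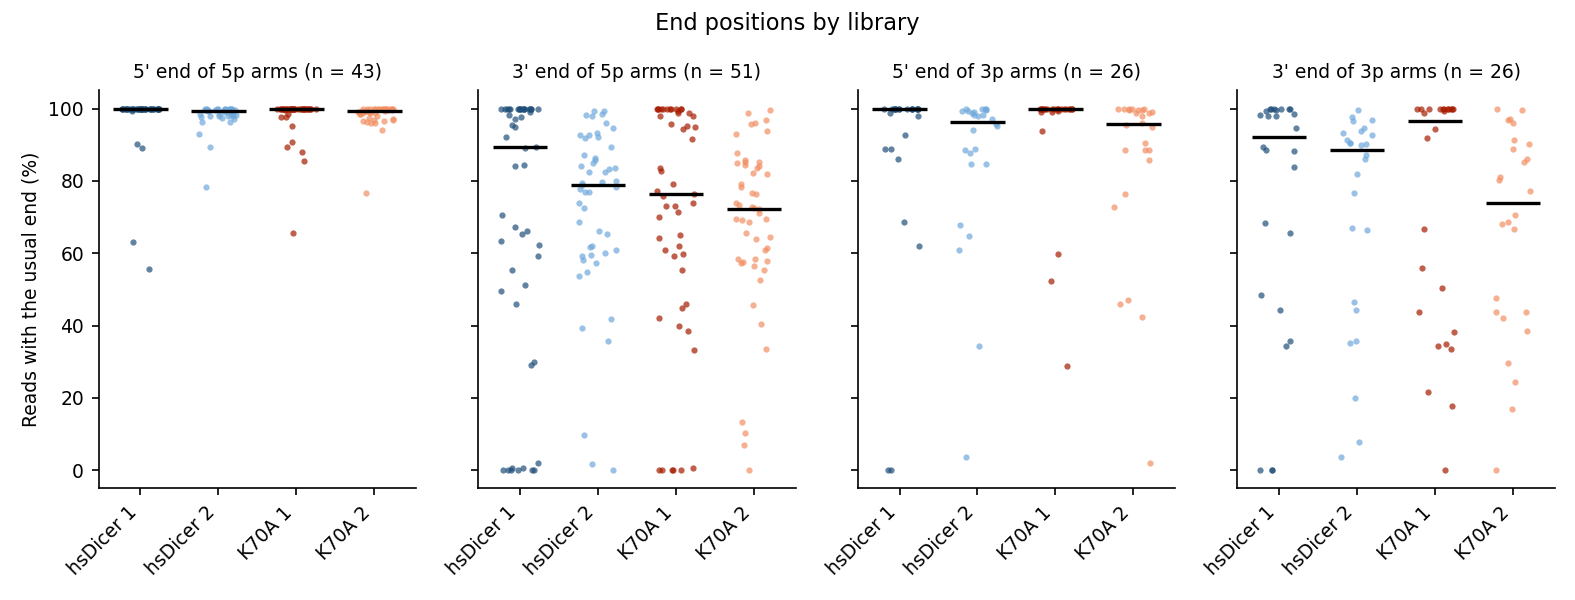
Share of an arm's reads with the usual end (percent), 1 point per arm and 1 column per library, in 4 panels for the 2 ends of 5p and of 3p arms, with the median of each column marked. For the 3′ end of 5p arms the K70A medians (76.3% and 72.3%) lie below the hsDicer medians (89.3% and 79.0%); 5′ ends of 5p arms sit near 100% in all columns.

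No single arm's end passed the edgeR test, with 0 calls of 43, 51, 26 and 26 arms (0.0% in each class, in the order 5′ of 5p, 3′ of 5p, 5′ of 3p and 3′ of 3p) and 0 arms at an unadjusted p under 0.05. The most used 5′ end of the 5p arm was the same in all 4 libraries for 43 of 43 arms. For the 3′ end of 5p arms this held for 32 of 51, for the 5′ end of 3p arms for 20 of 26 and for the 3′ end of 3p arms for 16 of 26. Both K70A libraries differed from both hsDicer libraries in their most used end in 1 arm, miR-221-3p, whose 3′ end had its usual place in 34.4% and 38.4% with K70A and 100% and 44.4% with hsDicer. In wild type it had that place in 94.1% and 38.5%. The end 1 nt earlier, most used with K70A, was also the most used in wild type 2 (42.0%) and had 42.3% in hsDicer 2. In hsDicer 1 the arm held only 1.05 steps. Shares over 10 percentage points apart in the same direction in both replicates were found for no 5′ end of a 5p arm. For the 3′ end of 5p arms 4 arms departed downward (7.84% of 51) and 1 upward (1.96%), for the 5′ end of 3p arms 1 downward (3.85% of 26), and for the 3′ end of 3p arms 2 downward (7.69% of 26). Within replicate 2, among arms of at least 20 steps, 31 of 44 had a lower usual 3′ end share on 5p arms with K70A, and 18 of 23 on 3p arms.

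miR-183-5p was the departing arm with the finest resolution, at no fewer than 12.5 steps in any library. Its usual 3′ end was used by 44.8% and 58.3% of reads with K70A, 84.0% and 79.8% with hsDicer and 100% and 81.4% in wild type (log2 odds difference −2.10, SE 1.96, adjusted p = 0.988 by edgeR). Ends 1 nt further out took 38.9% and 34.7% with K70A and 11.8% and 18.4% with hsDicer. Its usual 5′ end was used by 88.0% and 76.6% with K70A and by 90.3% and 89.4% with hsDicer. Its main read forms are shown with T for U and the seed of each in capitals; the first ends at the usual positions, the second runs 1 nt further at the 3′ end, and the third has both ends shifted by 1 nt, which changes the seed.
usual: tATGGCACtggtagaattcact
longer: tATGGCACtggtagaattcactg
shifted: aTGGCACTggtagaattcactg
The usual form made up 44.8% and 55.4% of the arm with K70A and 74.3% and 77.7% with hsDicer. The longer form made up 26.9% and 16.6% with K70A and 11.8% and 10.4% with hsDicer. The shifted form, whose 5′ end is the one Drosha makes, had 12% and 18.1% with K70A and 0.00907% and 8.04% with hsDicer. These 3 forms stood apart between the groups without overlap, but replicate 1 resolved the longer and shifted forms coarsely. In hsDicer 1, with a step of 5311.9 reads, the longer form held 7782 reads and the shifted form 6. In K70A 1, with a step of 2233.4 reads, they held 11137 and 4964. The form with the shifted 5′ end and the usual 3′ end overlapped, at 0.0024% and 2.85% with K70A and 9.68% and 2.08% with hsDicer.

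miR-214-3p, of a hairpin expressed with miR-199a in mesenchymal cells, departed at both ends, on no fewer than 3.80 steps. Its usual 5′ end, 1 nt before that of the RefSeq sequence above, was used by 52.3% and 42.4% of reads with K70A and 68.6% and 60.9% with hsDicer; in wild type it was used by 52.2% and 61.9%. Its usual 3′ end was used by 50.4% and 68.1% with K70A, 83.8% and 87.2% with hsDicer and 83.1% and 85.9% in wild type. Its main forms are the usual one, one that starts 1 nt later and ends 1 nt earlier, and one that only starts 1 nt later and equals the RefSeq sequence.
usual: tACAGCAGgcacagacaggcagt
shorter: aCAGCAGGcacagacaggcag
later start: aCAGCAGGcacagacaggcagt
The usual form made up 38.4% and 34.5% of the arm with K70A, 68.6% and 56.2% with hsDicer and 41.2% and 56.4% in wild type. Wild type 1 thus lay nearer to K70A than to hsDicer in this form. The shorter form made up 31.5% and 15.4% with K70A, 16.2% and 5.10% with hsDicer and 1.94% and 5.20% in wild type. In hsDicer 1 the shorter form held 3266 reads, less than that library's step of 5311.9. The form with only the later start overlapped, at 12% and 32.4% with K70A and 15.2% and 29.8% with hsDicer.

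**Figure D5:**
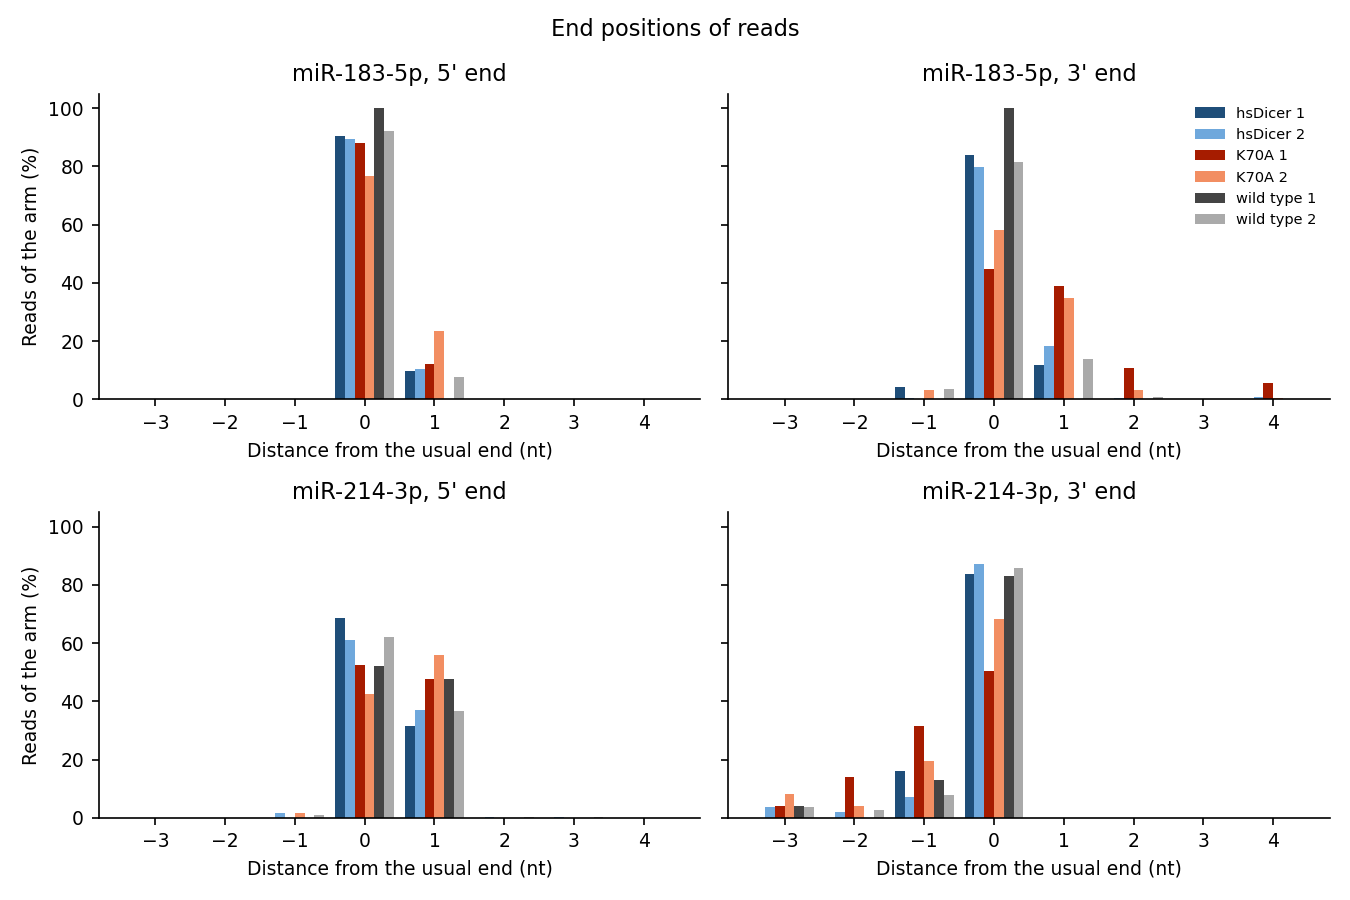
Share of the arm's reads (percent) at each distance in nt from the usual 5′ end (left) and 3′ end (right) for miR-183-5p and miR-214-3p, with 1 bar colour per library of hsDicer, K70A and wild type. For miR-183-5p the bars 1 nt beyond the usual 3′ end reach 38.9% and 34.7% with K70A and 11.8% and 18.4% with hsDicer.

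The other departing ends rested on fewer steps. miR-26b-5p had its usual 3′ end in 71.3% and 65.7% of reads with K70A and 99.8% and 77.8% with hsDicer, and miR-674-5p in 55.5% and 72.9% against 97.7% and 84.1%. miR-3068-5p had it in 0.11% and 45.6% against 29.1% and 59.98%, with overlap. miR-16-5p was the arm that departed upward, with 75.9% and 84.1% against 30.1% and 74.0%, and hsDicer 1 was the low library there. It held no fewer than 3.79 steps, close to the 3.80 of miR-214-3p. For 3p arms, miR-103-3p had its usual 3′ end in 21.6% and 47.6% of reads with K70A and 99.9% and 66.9% with hsDicer. Among arms named for the size of the change, some differed by fewer than 10 points in replicate 2, and all of these but miR-28a-3p differed more in replicate 1. For the 3′ end of 5p arms these were miR-199a-5p (46% and 57.6% against 100% and 61.8%), miR-423-5p (0.13% and 52.7% against 65.3% and 53.8%) and miR-351-5p (73.2% and 64.6% against 1.98% and 59.5%). For 5′ ends of 5p arms they were miR-30d-5p (85.4% and 99.1% against 100% and 100%), miR-31-5p (90.8% and 99.7% against 100% and 99.7%) and miR-3068-5p (100% and 98.6% against 55.5% and 96.2%). For 5′ ends of 3p arms they were miR-652-3p (100% and 100% against 0.06% and 98.0%), miR-378a-3p (100% and 88.5% against 86.0% and 84.6%) and miR-28a-3p (100% and 88.6% against 100% and 97.0%), and for the 3′ end of 3p arms miR-99b-3p (66.6% and 90.2% against 0.02% and 90.0%).

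Mean read lengths overlapped between the enzymes. The mean length of miRNA reads was 22.37 and 22.34 nt with K70A and 22.37 and 22.41 nt with hsDicer (exact permutation p = 0.667). Reads of 22 nt made up 62.4% and 59.1% with K70A and 57.8% and 57.7% with hsDicer, without overlap (exact permutation p = 0.333, the smallest possible). Wild type, with 70.4% and 57.6%, spanned both groups. Reads of 23 nt made up 25.2% and 28.6% with K70A against 27.1% and 31.6% with hsDicer, those of 24 nt 6.80% and 4.97% against 7.80% and 5.74%, and those of 21 nt 4.45% and 5.54% against 4.92% and 3.58%, all with overlap. By arm, limma called 0 of 77 mean lengths (0.0%), with 3 at an unadjusted p under 0.05. Both K70A libraries lay below both hsDicer libraries in 19 arms (24.7%) and above in 4 (5.19%), the latter being miR-1198-5p, miR-183-5p, miR-26b-5p and miR-99b-5p. The median change was −0.00 nt in replicate 1 and −0.07 nt in replicate 2, and its median size of 0.29 and 0.097 nt compares with 0.17 nt between hsDicer replicates and 0.19 nt between K70A replicates. miR-214-3p was shorter with K70A, at 21.81 and 21.93 nt against 22.52 and 22.41 nt (change −0.60 nt, SE 0.09, adjusted p = 0.550 by limma). miR-103-3p had 22.22 and 22.56 nt against 23.00 and 22.87 nt, and miR-3068-5p 24.00 and 24.26 nt against 24.74 and 24.55 nt. miR-183-5p had 22.71 and 22.17 nt against 21.98 and 22.11 nt.

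Reads of 18 to 36 nt that run past a Dicer cleavage site, as part of an uncut precursor would give, were rare with both enzymes. Longer reads, such as those of a whole precursor, were not counted, so the amount of uncut precursor was not measured. The reads counted overran the site by at least 5 nt, and their opposite end was no more than 2 nt away from its usual place. As a share of all reads with such an opposite end they made up 0.0687% and 0.171% with K70A and 0.154% and 0.25% with hsDicer (exact permutation p = 0.667). They made up 0.0360% and 0.0331% in wild type and 21.8% and 15.3% in the knockout. In replicate 1 each library's reads came almost wholly from 1 arm, miR-182-5p in hsDicer 1 (99.1% of them, 8333 reads) and miR-21a-5p in K70A 1 (97.3%, 3058 reads). In replicate 2 the arms with most such reads had a smaller share of them with K70A, counted in the same way: miR-21a-5p 0.429% against 0.692%, miR-31-5p 0.758% against 1.69%, miR-16-5p 0.395% against 0.715%, miR-196b-5p 2.14% against 7.44% and miR-532-5p 10.03% against 18.2%. Replicate 2 has 1 library of each enzyme, and replicate 1 did not repeat these differences. There the share was higher with K70A for miR-21a-5p (0.436% against 0.0011%, on 3058 and 9 reads). The same held for miR-31-5p (0.0843% against 0.00418%, on 34 and 3 reads). miR-16-5p, miR-196b-5p and miR-532-5p held no such reads in either library of replicate 1.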

How the data were processed

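The deposited files list each distinct read with its count; the authors neither trimmed, aligned nor scaled these counts, made with software not given in the sources used here. Each read was trimmed of the 3′ adapter that the labels state, and inserts 18 to 26 nt long were searched for exact matches in 1174 hairpins of GENCODE release M21 (GRCm38, 1087 names), of which 1007 matched RefSeq entries. Reads were assigned to arms from RefSeq mature positions where given (649 hairpins), otherwise by the hairpin midpoint; 577 arms were counted. Reads shared by hairpins of different names were left out. For reads past a cleavage site, matching inserts of 18 to 36 nt were used.

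Levels of the 404 arms with 20 reads or more, 5p to 3p ratios (20 or more on each arm, the arm by group interaction) and end shares were tested with edgeR 4.0.16 quasi-likelihood fits (TMM) on the 4 libraries, mean lengths with limma 3.58.1 in R 4.3.3, all 2-sided with Benjamini-Hochberg adjustment at 0.05. End and length tests took arms with 100 reads or more in each library. Single values were compared by exact permutation. A standard error is the change over the square root of F. In the log2 ratios per library, counts under 3 reads were set to 3. No change of ratio was formed where the same arm held 3 reads or fewer in both libraries. A pseudocount of 0.5 entered only an alternative test of ratios with limma. Counting and plots used Python 3.11.15 with scipy 1.17.1, pandas 2.3.3, matplotlib 3.10.9 and numpy 2.4.6, and DESeq2 1.42.0 was an alternative. Tests were checked on simulated data with a far smaller spread between libraries than the coefficient of variation of 2.46 found for levels. That check therefore does not show what the tests could detect in these libraries.

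Named were the 10 most abundant arms, the 6 largest differences each way among arms or hairpins of 100 RPM or more with the same direction in both replicates, the 4 largest end changes of each class, the departing items, and 2 to 4 members of each list; exceptions are marked. The rule, lists and comparison were chosen with earlier results of these data known.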

Additional observations from a re-analysis of the deposited data

How the results depend on the processing

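Resolution in replicate 1 limits the comparison: 83 (hsDicer) and 104 (K70A) arms reached 1 step there, against 336 and 294 in replicate 2. No count of calls passed 2 under any alternative. Levels gave 0 calls in the fit reported, 1 with DESeq2, 2 with the replicate block (miR-99b-5p, log2 difference 1.23, adjusted p = 0.0009, and miR-29b-3p, −0.46, adjusted p = 0.0015, both edgeR) and 2 with counts divided by the step plus the replicate block, an alternative chosen after seeing the data. The labels do not tie equal replicate numbers together; equal numbers share a read length, and their deviations correlated with r = 0.305 over 73 arms, which 2 pairs leave as a hint. The count of 5′ ends of 5p arms and of 3p arms called ranged from 0 to 1 with a library left out (1 without hsDicer replicate 2 in each). All other counts stayed at 0. With a library left out, the K70A minus hsDicer difference ranged from −15.0 to −4.69 points for the usual 3′ end of 5p arms.

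Direction turned, with the cause not tested, for let-7c-5p (0.31 as reported, −0.43 with the replicate block, −0.14 with counts divided by the step, −0.59 with both), miR-22-3p (0.038 with shared reads split) and miR-31-5p (0.16 scaled to all inserts, 0.088 with shared reads split). Counting ends within 1 nt of the usual one gave 1.95 for the 5′ end of miR-183-5p, 5.11 for that of miR-214-3p, −3.86 for miR-351-5p and −5.40 for miR-99b-3p. Usual ends taken from hsDicer gave −15.74 for miR-652-3p and −9.95 for miR-99b-3p, and longer reads with unmatched tails −0.28 for the miR-361 ratio. With a library left out, log2 differences ranged from −2.28 to 0.80 for let-7b-5p, −2.15 to 1.17 for let-7c-5p, −1.16 to 0.51 for let-7i-5p, −0.86 to 0.44 for miR-21a-5p, −2.03 to 0.82 for miR-24-3p and −1.24 to 0.63 for miR-31-5p. Ratios ranged from −12.91 to 0.42 for miR-214, −1.31 to 7.26 for miR-361, −0.10 to 1.40 for miR-92 and −0.16 to 2.06 for miR-99b. Ends ranged from −6.41 to 3.20 for miR-28a-3p and −1.07 to 14.35 for miR-99b-3p. miR-99b-5p kept its direction, at 0.61 to 1.85, as did miR-96-5p, at −1.35 to −0.18.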
